A study of Homo sapiens with 6 samples.

Results

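The solvent-treated arm of this study is a baseline transcriptome of human neural stem cells (NSCs), self-renewing precursors that can form neurons and glia. It consists of 3 of the series' 6 arrays, chosen by their sample titles as the ones given the solvent dimethyl sulfoxide (DMSO). The cells were derived from the established human embryonic stem cell line SA-01, were at passage 14, and grew in a mix of Neurobasal and DMEM/F-12 media with N-2 and B-27 supplements. They were plated on polyornithine and laminin, received 0.1% DMSO from 5 h after plating, and were collected after 24 h. The 3 arrays come from 3 independent cultures, called culture 1, 2 and 3 by their replicate numbers. The other 3 arrays are NSCs of the same line and passage given the compound X5050 at 100 µM for 24 h, and are used here only as a further array of each culture. All 6 arrays stand for 1 cell line, so the spread is that between cultures of SA-01 and their arrays, not between lines or donors.

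Neural stem cells keep their state through transcription factors such as SOX2 and PAX6, and fill their cytoplasm with the intermediate filaments vimentin and nestin. Receptors for Notch, Wnt, fibroblast growth factor and Hedgehog signals govern whether such cells divide or become neurons. Cadherins, integrins and laminins hold them to each other and to their substrate, and dividing precursors build membrane lipid and nucleotides for each cell cycle.

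Signals are log2 values per probe set, a group of probes for a transcript, and 19460 probe sets with exactly 1 gene symbol, for 18417 genes, were described. Each gene is given by its brightest probe set. Probe sets differ in how well they bind, so a rank orders signals within an array and does not show that 1 gene has more RNA than another. A probe set was called bright when it was among the brightest 10% on each of the 3 arrays. It was called dim when it lay on each array at or below the 95th percentile of the olfactory receptor probe sets, a family of odour receptors used here as a low reference, and middle otherwise. It was called variable when the SD over the 3 cultures was at least 0.5 on the log2 scale.

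By these rules 8.80% of the 18417 genes were bright (1620 genes), 23.1% were dim (4247 genes) and 2.51% were variable (462 genes). The array medians were 6.25, 6.23 and 6.27, the limits of the brightest 10% were 9.24, 9.22 and 9.18, and the olfactory receptor limits were 5.04, 4.96 and 5.06. The 3 arrays had Pearson correlations of 0.985 to 0.992 over the probe sets, which are not independent replicates. Culture 1 stood apart from the others: 226 probe sets differed at least 2-fold between cultures 1 and 2, 326 between cultures 1 and 3, and 82 between cultures 2 and 3.

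**Figure D1:**
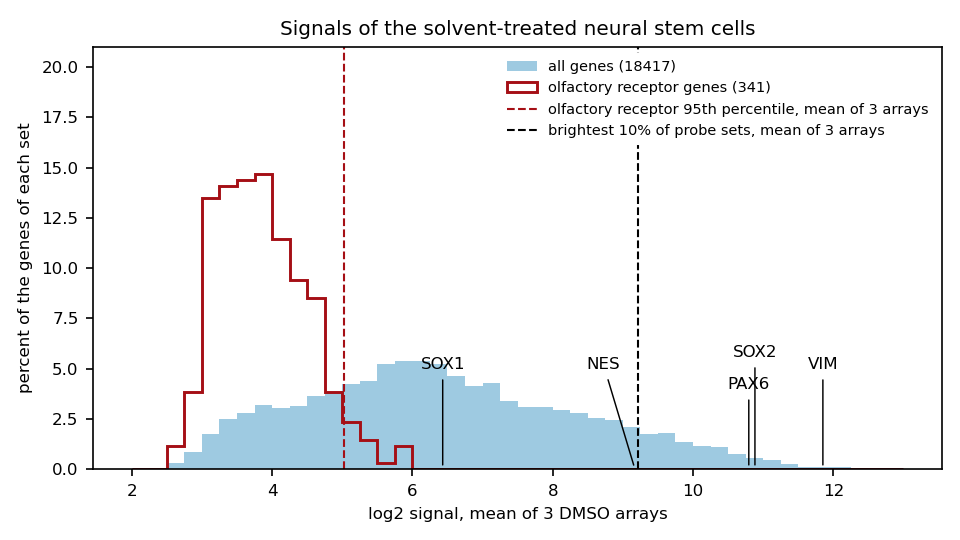
Share of genes (vertical axis, percent of each set) by log2 signal, the mean of the 3 DMSO arrays (horizontal axis), for all 18417 genes (filled) and for the olfactory receptor genes (outline). Dashed lines mark the olfactory receptor 95th percentile and the limit of the brightest 10%. VIM, SOX2 and PAX6 lie right of the upper limit, NES lies next to it and SOX1 lies in the middle of the distribution.

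The neural stem cell identity of the cultures was first checked against 5 defining markers, of which 3 were bright and none was dim. VIM, the filament protein vimentin, had a log2 signal of 11.96, 11.79 and 11.81 in cultures 1, 2 and 3, and ranked between 49 and 75 of the 19460 probe sets. SOX2, the transcription factor that maintains neural precursors, had 10.74, 10.91 and 11.002 and ranked between 253 and 394. PAX6, a factor of the early neural epithelium, had 10.51, 10.90 and 10.98 and ranked between 262 and 514. All 3 were among the brightest signals in every culture, and their SDs were 0.09, 0.13 and 0.25.

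NES, the filament protein nestin, had 9.33, 9.08 and 9.11, which was above the limit of the brightest 10% in culture 1 and just under it in cultures 2 and 3. SOX1, an early marker of neuroectoderm, was much closer to the array medians. Its log2 signal was 6.35, 6.48 and 6.47 (SD 0.07, n = 3), with 46.3% of the probe sets brighter by mean. The SOX1 probe set therefore gave a steady signal above the olfactory receptor range in all cultures, at a middle rank.

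Among the 23 measured markers of neural stem cells and radial glia, the elongated precursors of the developing brain, 7 were bright, 15 middle and 1 dim. FABP7, a fatty acid carrier of radial glia, had 12.21, 12.01 and 11.98 and ranked between 21 and 57. CDH2, the neural cadherin, had 11.83, 11.64 and 11.64. PTPRZ1, a receptor phosphatase of radial glia, had 11.07, 11.11 and 11.18, and SLC1A3, a glial glutamate transporter, had 10.61, 10.34 and 10.82. The 1 dim member was NR2E1, the orphan nuclear receptor TLX of adult forebrain stem cells, at 3.64, 3.85 and 3.71. TNC, the matrix protein tenascin C, spanned from 9.90 in culture 1 to 8.33 in culture 2 and 7.61 in culture 3, and PROM1, the surface marker CD133, spanned from 10.10 through 9.81 to 9.12. TNC passed the test between cultures described further on, and PROM1 did not (limma adjusted p = 0.0503 for PROM1). The mean over the 23 markers was nearly the same in the cultures, at 8.77, 8.74 and 8.75.

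**Figure D2:**
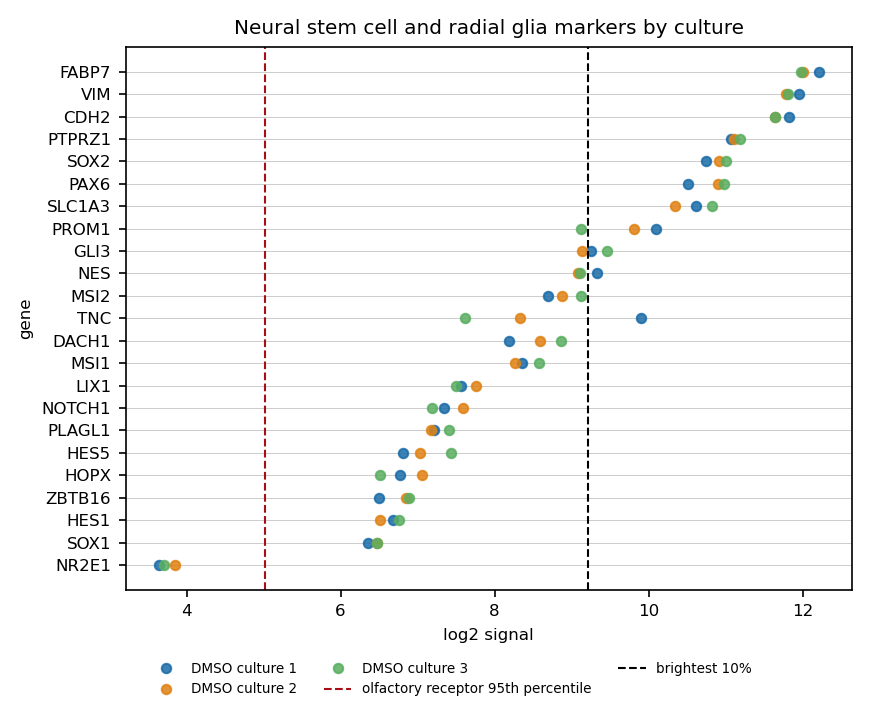
Log2 signal (horizontal axis) of the 23 neural stem cell and radial glia markers (vertical axis, ordered by mean) in DMSO cultures 1, 2 and 3 (points). Dashed lines are the olfactory receptor 95th percentile and the limit of the brightest 10%, each the mean of 3 arrays. The points of most genes lie close together, while those of TNC spread from 7.61 to 9.90 and NR2E1 lies left of the lower line.

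Transcription factors were described in 12 lists with 211 measured genes, of which 21 (9.95%) were bright, 21 dim and 11 variable. The SOX family members of neural stem cells showed a single bright gene, SOX2, among 11, and no dim one. SOX3, which acts alongside SOX2 in neural precursors, had 7.995, 7.93 and 8.36. SOX5 had 8.20, 8.26 and 8.55, and SOX9, a factor of gliogenic precursors, had 7.59, 7.80 and 7.89. In 9 of these 11 genes the highest signal was in culture 3, against 36.7% of all probe sets. The amounts were small, with a median SD of 0.15. None of the 11 passed the test between cultures described further on.

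Of 26 neural progenitor factors outside the SOX family 8 were bright, and the list median was 8.76 against 6.27 for all genes. SALL1, a zinc finger factor of neural precursors, had 10.17, 10.40 and 10.34. PBX3 had 10.17, 10.35 and 10.35, and MEIS2 had 10.09, 10.08 and 10.25; both are homeodomain partners of HOX and PAX factors. GLI3, the zinc finger factor of the Hedgehog pathway that often acts as a repressor, had 9.26, 9.13 and 9.46, close to the limit for bright. ZIC1, a dorsal neural factor, had 5.93, 5.80 and 5.81. These genes differed little between cultures, with the exception of NFIX, a nuclear factor of late neural precursors, at 7.54, 6.19 and 7.09.

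Notch effectors and Id proteins, which hold back neuronal differentiation, were all in the middle class (12 of 12). ID2 had 8.41, 8.64 and 8.41, and HEY1 had 7.28, 7.26 and 7.51. ID3, a target of BMP signalling, had 8.09 in culture 1, 7.61 in culture 2 and 6.37 in culture 3, the widest span of the list. Proneural and neurogenic factors had no bright member among 22 and 4 dim ones. EBF3, a factor of early neurons, had 8.63, 8.98 and 9.53, and NEUROD4 had 7.39, 8.24 and 8.11, both lowest in culture 1. NEUROD4 did not pass the test between cultures described further on (limma adjusted p = 0.0507). OLIG2, a factor of motor neuron and oligodendrocyte precursors, was dim at 4.80, 4.67 and 4.90, as was NEUROD6, a factor of cortical neurons, at 3.68, 3.98 and 3.91.

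Factors of regional identity were mostly middle or dim, as were genes at large, of which 8.80% were bright and 23.1% dim. The forebrain list had no bright member among 18 and 5 dim ones (27.8%), and its median was 5.54. GSX2 led it with 7.12, 6.97 and 7.23, and GSX1 had 6.79, 6.80 and 6.96. EMX2, a factor of the dorsal forebrain, was dim at 3.74, 3.84 and 3.62. HESX1, of the anterior neural plate, was dim at 3.61, 3.75 and 3.70. The midbrain and hindbrain list had no bright and no dim member among 19, with a median of 6.63. HOXA2, a hindbrain factor, led it with 8.64, 8.70 and 8.90, followed by HOXB2 with 7.55, 7.41 and 7.79. GBX2 had 7.48, 7.33 and 7.53. At the low end of this list HOXB1 had 5.46, 5.31 and 5.49, and PAX5 had 5.45, 5.10 and 5.37. In the whole HOX family, whose members mark positions along the head to tail axis, 1 of 27 genes was bright and 6 were dim. The bright one was HOXB9, a factor of the spinal cord region, with 9.48, 9.57 and 9.74.

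Among 17 factors of dorsoventral identity in the neural tube none was bright and 3 were dim. PAX3, a dorsal factor that is also used by the neural crest, had 9.41, 9.19 and 9.95, which was above the limit of the brightest 10% in cultures 1 and 3 and under it in culture 2. DBX2, a factor of intermediate progenitor domains, had 6.84 in culture 1 and 7.80 and 7.90 in cultures 2 and 3.

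Factors of chromatin and repression gave the highest list median, 9.19, with 11 of 26 bright and none dim. HMGB2, a chromatin protein of dividing cells, had 11.22, 11.49 and 11.31. KDM1A, the histone demethylase LSD1, had 11.22, 11.32 and 11.27, and HDAC2, a histone deacetylase, had 11.19, 11.19 and 11.23 (SD 0.02). SMARCC1, a subunit of the BAF remodelling complex, had 10.83, 10.97 and 10.81. None of these 26 genes was variable. Across symbol families, ZNF462 was the brightest of 480 measured zinc finger genes at 11.05, 11.24 and 11.20. TEAD1, a partner of the YAP coactivator, had 10.16, 9.97 and 10.02.

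Receptors were described in 10 lists with 196 measured genes, of which 25 (12.8%) were bright, 21 dim and 14 variable. Of 30 receptor tyrosine kinases 5 were bright and 6 dim. IGF1R, the receptor for insulin-like growth factors, had 10.97, 10.65 and 10.55. NTRK2, the receptor for the neurotrophin BDNF, had 9.69, 9.80 and 10.06. ERBB4, a neuregulin receptor, had 9.57, 9.75 and 9.49, FGFR2, a fibroblast growth factor receptor, had 9.35, 9.56 and 9.62, and RYK, a Wnt co-receptor, had 9.94, 9.79 and 9.59. At the other end MET, the hepatocyte growth factor receptor, had 4.09, 3.58 and 3.69, and FLT1, a receptor for vascular endothelial growth factor, had 3.65, 3.25 and 3.42.

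Bright members made up 6.25% of the Notch list (1 of 16) and 15.8% of the Wnt list (3 of 19). They made up 12.5% of the Hedgehog list (1 of 8) and 23.1% of the BMP and TGF-beta list (3 of 13). These shares of short lists are read beside the 8.80% of all genes. JAG1, a Notch ligand, was the 1 bright gene of 16 Notch receptors and ligands, at 10.12, 10.55 and 10.68. NOTCH2 had 8.52, 8.45 and 8.12, and NOTCH1 had 7.35, 7.58 and 7.18. Among 19 Wnt receptors FZD3 had 10.61, 10.54 and 10.57, the co-receptor LRP6 had 10.42, 10.47 and 10.41, and the R-spondin receptor LGR4 had 9.29, 9.57 and 9.72. PTCH1, the Hedgehog receptor and itself a Hedgehog target gene, had 10.06, 10.61 and 10.49 and was the 1 bright gene of 8. For BMP and TGF-beta, ACVR2A had 10.23, 10.87 and 10.90, BMPR2 had 10.17, 10.02 and 9.88, and TGFBR1 had 10.06, 10.03 and 9.92, so 3 of 13 were bright. LIFR, the receptor for leukaemia inhibitory factor, had 10.47, 10.27 and 9.96. It did not pass the test between cultures described further on (limma adjusted p = 0.267).

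Of 20 receptors that steer growing axons and cells 4 were bright and none was dim. The Slit receptor ROBO1 had 11.01, 10.99 and 11.16, and its relative ROBO2 had 9.997, 10.42 and 10.60. DCC, a netrin receptor, had 10.33, 10.57 and 10.90, and the related receptor NEO1 had 11.12, 11.06 and 10.79. The first 3 were highest in culture 3 and NEO1 in culture 1, but none of them passed the test between cultures described further on. Of the 20 receptors NRP2, PLXND1 and ROBO3 did pass it, 2 of them highest in culture 1 and 1 in culture 3. Among Eph receptors and ephrins, which act at cell contacts, EPHA3 had 10.22, 10.0005 and 10.10 and EFNB2 had 10.02, 9.35 and 9.68. EPHA7 stood out by its pattern: it had 8.51 in culture 2 against 6.57 and 6.85 in cultures 1 and 3.

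Of 31 receptors for neurotransmitters none was bright on all 3 arrays and 8 were dim. GRIA1, an AMPA glutamate receptor subunit, led them with 10.23, 9.39 and 9.004, above the limit of the brightest 10% in cultures 1 and 2 alone. The GABA receptor subunits GABRA2, at 3.70, 3.75 and 3.63, and GABRB1, at 3.25, 3.37 and 3.24, were dim. In the lipid, peptide and nuclear receptor list 5 of 32 were bright: ADGRL2, an adhesion receptor of the latrophilin group, had 11.23, 11.22 and 11.05, EDNRB, the endothelin B receptor, had 10.15, 9.79 and 10.33, and CXCR4, the CXCL12 receptor, had 9.76, 9.71 and 9.98. CXCR4 was the 1 bright member of 14 chemokine receptors, of which 10 were dim. All 6 trace amine receptors and 20 of 27 taste receptors were dim as well.

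**Figure D3:**
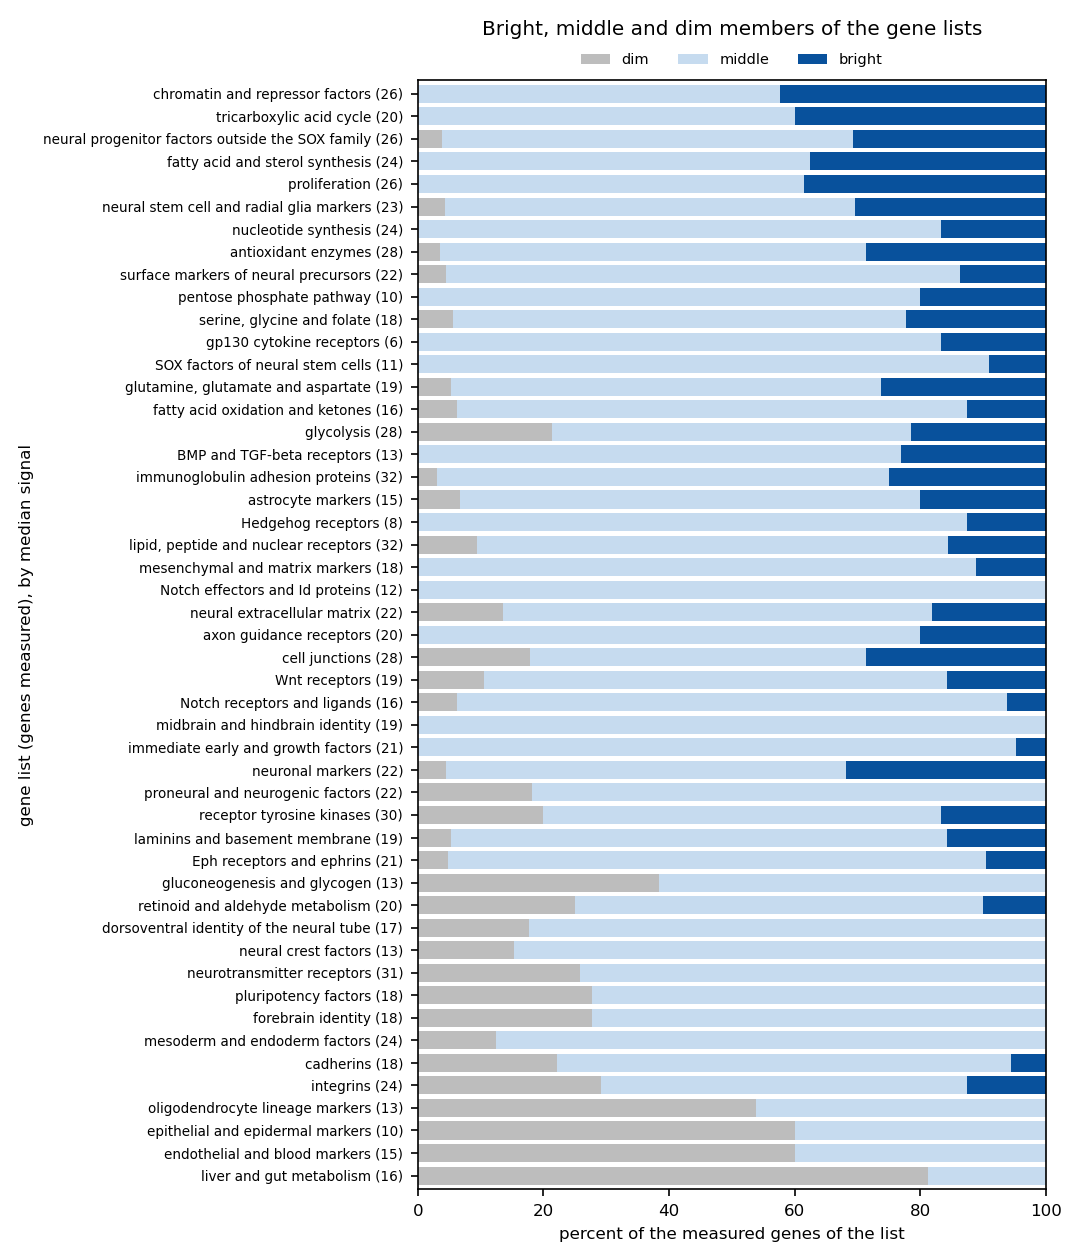
Percent of the measured genes of each of 49 lists (horizontal axis) that were dim (grey), middle (pale blue) or bright (dark blue) on all 3 DMSO arrays. Lists are ordered by median log2 signal from high (top) to low (bottom), with the number of measured genes in brackets. Chromatin, tricarboxylic acid cycle and lipid synthesis lists have no dim member, and 13 of 16 liver and gut metabolism genes are dim.

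Adhesion genes, in 7 lists, had 30 of 164 measured genes bright (18.3%), 22 dim and 31 variable (18.9%), the largest variable share of the gene classes described. Among the cadherins CDH2 was the 1 bright gene of 18. CDH1, the epithelial cadherin, was dim at 4.25, 4.45 and 4.21. CDH6, a cadherin of neural crest and kidney precursors, had 10.22 in culture 1 and 8.60 and 8.53 in cultures 2 and 3, a span that did not pass the test between cultures described further on (limma adjusted p = 0.0752).

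Of 24 integrins, the receptors that bind matrix, 3 were bright, 7 dim and 6 variable. ITGB8, which activates latent TGF-beta, had 11.20, 11.03 and 11.01. ITGA6, a laminin receptor subunit, had 9.58, 10.35 and 10.08, and did not pass the test between cultures (limma adjusted p = 0.301). ITGAV, the alpha chain of vitronectin and fibronectin receptors, had 10.50, 9.63 and 9.34, and ITGA4, a subunit that binds fibronectin and VCAM1, had 7.89, 6.20 and 5.36. Both of the latter were highest in culture 1, and ITGA4 moved from above the array median in culture 1 to below it in culture 3.

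Immunoglobulin adhesion proteins had 8 of 32 bright. NECTIN3, which forms contacts between precursors, had 11.16, 10.77 and 10.65. NCAM1, the neural cell adhesion molecule, had 10.30, 10.81 and 10.84, and CHL1, a relative of the L1 protein, had 10.46, 10.37 and 10.14. CNTN2, a contactin of growing axons, had 7.11, 6.25 and 7.66, lowest in culture 2. Among junction genes GJA1, the gap junction protein connexin 43, had 11.47, 10.56 and 10.28, CTNNB1, beta-catenin, had 10.50, 10.38 and 10.47, and TJP1, the tight junction scaffold ZO-1, had 10.33, 10.24 and 10.01. The claudins, the strand proteins of tight junctions, had no bright member among 23 and 13 dim ones.

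Surface and matrix genes separated into steady and variable ones. CD63, a tetraspanin, had 11.91, 11.69 and 11.95, and CD24, a surface protein of neural precursors and young neurons, had 10.36, 10.38 and 10.31. SPARC, a matrix glycoprotein, had 12.07, 11.87 and 11.79, and VCAN, the proteoglycan versican, had 10.12, 10.11 and 10.004. In contrast CD44, the hyaluronan receptor, had 10.39, 8.76 and 9.06, FN1, fibronectin, had 11.49, 9.88 and 9.20, and LAMC1, the laminin gamma 1 chain, had 10.01, 9.22 and 8.62. SPARCL1, a relative of SPARC made by astroglia, ran the other way with 9.29, 10.10 and 10.40. HAPLN1, a hyaluronan link protein, was dim at 2.93, 2.81 and 2.93.

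Metabolic genes had 49 of 234 measured genes bright (20.9%), the largest bright share of the classes, with 32 dim and 12 variable. In the tricarboxylic acid cycle, the mitochondrial oxidation route, 8 of 20 were bright and none was dim or variable. MDH2, mitochondrial malate dehydrogenase, had 10.80, 10.72 and 10.90, SUCLA2, a succinyl-CoA ligase subunit, had 10.81, 10.64 and 10.65, and DLD, a subunit of the pyruvate and oxoglutarate dehydrogenases, had 10.42, 10.30 and 10.26. Among respiratory chain subunits 11 of 33 genes of complex I were bright and none was dim, and of 43 genes of complexes III to V 19 were bright and 5 dim. NDUFA1 had 11.30, 11.32 and 11.56, and ATP5MG had 11.77, 11.77 and 11.85.

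In glycolysis 6 of 28 genes were bright and 6 dim. GAPDH had 12.11, 11.97 and 12.18, LDHB, lactate dehydrogenase B, had 12.05, 12.12 and 11.96, and ENO1, an enolase, had 11.13, 11.05 and 10.72. The dim end held isozymes of germ cells: PGK2 had 3.22, 3.33 and 3.50 and LDHC had 2.57, 2.70 and 2.81. PFKP, the platelet form of phosphofructokinase, was the variable member at 7.99, 6.94 and 6.77. In the pentose phosphate pathway PGD had 10.35, 10.47 and 10.44 and TALDO1 had 9.88, 9.83 and 9.99, while TKTL1, a transketolase-like gene, had 7.23, 7.70 and 8.45. Gluconeogenesis and glycogen genes had no bright member among 13 and 5 dim ones, among them the liver glycogen synthase GYS2 at 3.53, 3.60 and 3.70.

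Genes that build lipid were bright in 9 of 24 cases and never dim. HMGCS1, the HMG-CoA synthase of the mevalonate route, had 11.65, 11.40 and 11.45. SQLE, squalene epoxidase, had 11.13, 10.96 and 11.02, SCD, the stearoyl-CoA desaturase, had 11.03, 10.84 and 10.76, and ELOVL5, a fatty acid elongase, had 11.26, 11.09 and 10.90. In these 4 genes culture 1 was highest, by at most 0.36 over the lowest culture, and none of the 4 passed the test between cultures. Of the 24 genes 2 did pass it, DHCR7 and ELOVL1, both highest in culture 1. DHCR7 had 8.92, 8.29 and 8.19 (limma adjusted p = 0.0235). For fatty acid oxidation HADHA had 9.99, 9.94 and 10.18 and ACADM had 9.95, 10.06 and 10.06.

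Nucleotide, amino acid and redox enzymes gave further bright genes. ODC1, ornithine decarboxylase of polyamine synthesis, had 12.40, 12.43 and 12.39 and ranked between 8 and 18. TYMS, thymidylate synthase, had 11.30, 11.27 and 11.23, and RRM1, the large ribonucleotide reductase subunit, had 10.57, 10.64 and 10.56. PSAT1 of serine synthesis had 9.50, 9.55 and 9.74, and GLUL, glutamine synthetase, had 9.31, 9.62 and 9.84. GSTP1, a glutathione transferase, had 11.01, 10.98 and 11.23, and SOD1, superoxide dismutase, had 11.02, 10.96 and 11.06. Of the 88 measured genes of these lists 9 were variable, against 2.51% of all genes. Culture 1 was highest in 8 of the 9, and in 66.3% of all variable probe sets. The 9 include SLC7A11, the cystine transporter, at 8.86, 7.63 and 6.55, and NQO1, a quinone reductase, at 8.86, 7.71 and 6.87. HPRT1, of purine salvage, had 7.19, 6.88 and 5.96, and ALDH1L2, a mitochondrial folate enzyme, had 6.30, 5.26 and 4.85. Neither HPRT1 nor ALDH1L2 passed the test between cultures described further on (limma adjusted p = 0.0836 and 0.0765). In these lists that test called SLC7A11, NQO1, GCLM and RRM2B alone, so most of the 9 variable genes did not pass it. ALDH1L2 was within the olfactory receptor range in culture 3. ALDH1A1, a retinaldehyde dehydrogenase, was dim at 3.51, 3.46 and 3.40, as were all 8 UDP-glucuronosyltransferases and 29 of 48 cytochromes P450.

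Markers of other cell types were examined next. The pluripotency list had no bright member among 18 and 5 dim ones, with ZFP42 at 3.36, 3.37 and 3.32 and DPPA2 at 3.60, 3.65 and 3.60. DPPA4, also a gene of pluripotent cells, had 8.38, 8.24 and 7.98, and GDF3, a growth factor of such cells, had 8.54, 8.66 and 7.66. Of 15 endothelial and blood markers 9 were dim, of 10 epithelial markers 6, and of 13 oligodendrocyte markers 7. PTPRC, the leukocyte antigen CD45, had 3.14, 3.14 and 2.98, and EPCAM, an epithelial and pluripotent cell marker, had 4.42, 4.46 and 4.47. KDR was the 1 variable gene of the 15 endothelial and blood markers, at 7.44, 5.74 and 5.36. It was also the 1 of the 15 called by the test between cultures described further on (limma adjusted p = 0.00153).

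Neuronal markers were bright in 7 of 22 cases and dim in 1. STMN2, a microtubule regulator of growing axons, had 12.06, 12.16 and 12.45 and ranked between 14 and 37. NEFM, the medium neurofilament, had 12.17, 12.02 and 12.14, MAP2, a dendritic microtubule protein, had 10.78, 10.71 and 10.98, and GAP43, a growth cone protein, had 11.51, 10.77 and 10.56. The vesicular glutamate transporter SLC17A7 was dim at 4.71, 4.61 and 4.70, while SLC17A6, its relative, had 5.78, 5.46 and 6.79. Bulk arrays of a culture cannot tell fewer cells of a type from less RNA per cell, so the share of cells behind the neuronal signals was not measured. Proliferation genes were bright in 10 of 26 cases and never dim, with CDK4 at 11.36, 11.41 and 11.44, TOP2A at 10.94, 11.24 and 10.90 and CENPF at 10.53, 10.94 and 10.46.

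Astrocyte markers had 3 of 15 bright and 1 dim. GJA1, SLC1A3 and SPARCL1, whose values stand above, were the bright ones, and the water channel AQP4 was dim at 4.60, 4.29 and 5.01. Mesenchymal and matrix markers, genes of fibroblasts and smooth muscle, had 2 of 18 bright, none dim and 9 variable, and all 18 had their highest signal in culture 1. FN1, described above, is also one of them. Culture 1 was highest in 33.4% of all probe sets. The list was chosen with earlier results of these data known, so these counts describe it and support nothing further. The mean over these 18 genes was 8.15 in culture 1, 6.99 in culture 2 and 6.86 in culture 3. ACTA2, smooth muscle actin, had 11.70, 10.39 and 9.27, and LUM, the collagen-binding lumican, had 9.45, 7.91 and 8.11. PRRX1, a factor of mesenchyme, had 8.94, 7.31 and 7.62, and PDGFRB, a receptor of mural cells and fibroblasts, had 6.62, 6.00 and 6.19. Neural crest factors included SNAI2, at 9.96, 7.64 and 7.15, next to TFAP2A, at 6.46, 6.43 and 6.94, and SNAI1, dim at 4.62, 4.67 and 4.86.

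**Figure D4:**
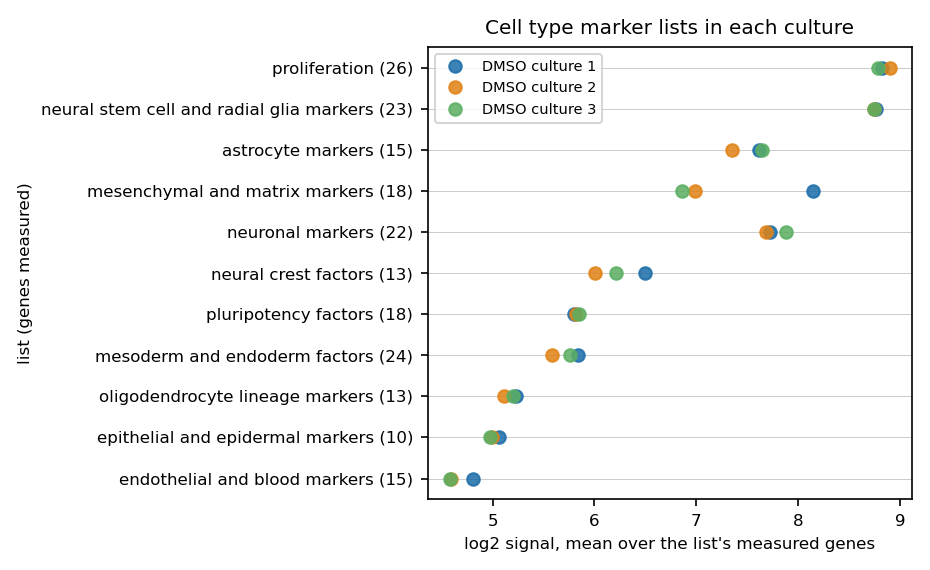
Mean log2 signal over the measured genes of each list (horizontal axis) for 11 lists of cell type and lineage genes (vertical axis, by median, number of genes in brackets) in DMSO cultures 1, 2 and 3 (points). The mesenchymal and matrix list lies at 8.15 in culture 1 and at 6.99 and 6.86 in cultures 2 and 3, while the neural stem cell list lies between 8.74 and 8.77 in all 3.

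Most signals differed little between the cultures. The median SD over the 19460 probe sets was 0.13 on the log2 scale, and it was 0.10 for bright, 0.14 for middle and 0.11 for dim probe sets. Of the probe sets 484 were variable, of which 454 were middle, 19 dim and 11 bright, and 67 had an SD of at least 1. Without culture 1 the number was 291, and without culture 2 it was 757. Culture 1 had the highest signal in 321 of the 484 (66.3%, against 33.4% of all probe sets), culture 2 in 89 and culture 3 in 74.

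The 20 most variable genes that were not dim all had their highest signal in culture 1, and 19 of them were ordered culture 1, then 2, then 3. Their SDs ran from 1.37 to 2.33. In 17 of the 20 the highest culture was 6.37 to 22.8 times the lowest on the linear scale. In the other 3 the lowest culture lay in the olfactory receptor range, so the fold is a bound against the limit of that range: at least 10.2-fold for ANKRD1, 9.69-fold for CLDN1 and 4.72-fold for ANO4. CCL2, a chemokine, had 9.97 in culture 1, 6.65 in culture 2 and 5.48 in culture 3. ACTG2, the enteric form of smooth muscle actin, had 10.32, 7.19 and 5.81, and TAGLN, the actin-binding protein transgelin, had 9.10, 7.53 and 5.58. ANKRD1, a gene of stretched muscle, had 8.42, 5.65 and 4.45, which in culture 3 was within the olfactory receptor range.

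Several of the 20 are matrix or surface genes. COL12A1, a fibril-associated collagen, had 8.88, 6.14 and 5.23, POSTN, the matrix protein periostin, had 10.30, 7.80 and 7.41, and THBS1, thrombospondin 1, had 9.32, 7.35 and 6.46. LOX, which cross-links collagen, had 8.86, 6.22 and 5.89. NT5E, the surface enzyme CD73, had 8.93, 6.22 and 5.87, CAV1, the caveolar protein caveolin 1, had 10.10, 7.61 and 7.28, and CCN1, a secreted matrix signal, had 9.98, 7.99 and 7.03. SPP1, osteopontin, had the highest mean of the 20, with 11.13, 9.97 and 8.23. The others were CLDN1, MYOF, ADAM12, SNAI2, ANO4, LPCAT2, ALPK2 and GLIPR1.

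**Figure D5:**
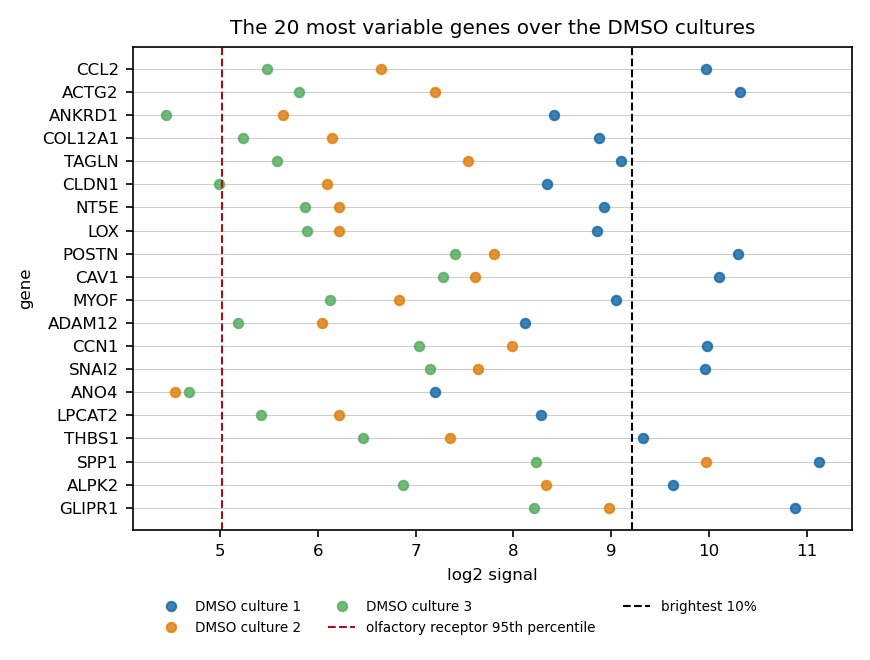
Log2 signal (horizontal axis) in DMSO cultures 1, 2 and 3 (points) of the 20 genes with the largest SD among those not dim (vertical axis, by SD). Dashed lines are the olfactory receptor 95th percentile and the limit of the brightest 10%, each the mean of 3 arrays. Culture 1 is rightmost for all 20 genes, and the order of cultures 2 and 3 differs only for ANO4.

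Because these genes share a pattern over cultures, the sequence before their starts was read from RefSeq's promoter table (GRCh38.p14, 250 bases before to 50 after a start), in which 14 of the 20 genes have 19 promoters. Letters of a pair of motifs of muscle and contact genes, chosen after the values were seen, were searched on both strands: the CArG box, the site of serum response factor, and GGAATG, a core of TEAD sites. They do not overlap in the windows printed. ACTG2 carries a pair of CArG boxes, in capitals here, that begin 110 and 73 bases before its start at chr2:73892878-73892964 (plus strand). The other windows mark GGAATG in capitals, at chr10:90921190-90921327 (minus strand) for ANKRD1, chr6:75206195-75206240 (minus strand) for COL12A1 and chr15:39581013-39581058 (plus strand) for THBS1, each within the promoter of the gene.
ACTG2: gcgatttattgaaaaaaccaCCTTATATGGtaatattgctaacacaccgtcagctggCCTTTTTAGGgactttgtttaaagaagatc
ANKRD1: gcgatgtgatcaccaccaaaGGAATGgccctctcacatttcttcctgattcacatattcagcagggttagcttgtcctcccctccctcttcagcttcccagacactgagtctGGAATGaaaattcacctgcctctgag
COL12A1: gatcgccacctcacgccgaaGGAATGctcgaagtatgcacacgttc
THBS1: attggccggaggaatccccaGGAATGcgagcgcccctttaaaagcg

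Neither motif was general among these genes. A CArG box was found in 1 of the 19 promoters, that of ACTG2, and GGAATG in 4, which includes ANO4. Over the variable genes with their highest signal in culture 1, 12 of 391 promoters (3.07%) held a CArG box, against 1.25% of the 20109 promoters of all measured genes and 1.29% of the 35116 in the table. The share was 1.88% (3 of 160) for variable genes highest in culture 2 or 3. In the mesenchymal and matrix list 9 of 18 genes have promoters in the table, and 0 of their 11 promoters held one. The CArG box was searched in its strict form alone, with only A and T letters between CC and GG. Boxes with other letters in the core were not counted, so a count of 0 does not show that such sites are absent. GGAATG was in 15.9% of those 391, against 12.1% of the measured genes' promoters, 14.0% of the table and 11.2% of the 160 promoters of variable genes highest in culture 2 or 3. It was in 2 of the 11 of the mesenchymal and matrix list. These are descriptions of letters in a window, and no binding was measured.

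Variable genes with other patterns included neuronal ones. SLC17A6 and CNTN2 were highest in culture 3, as was DNER, a neuronal Notch ligand, at 6.51, 6.62 and 7.61. GABRR1, a GABA receptor subunit, had 7.57, 7.79 and 8.80. The glutamate receptor subunits GRIA1, whose values stand above, and GRIN2B were also variable but highest in culture 1. GRIN2B had 5.99, 5.94 and 4.73, the last within the olfactory receptor range. IL13RA2, a decoy receptor for interleukin 13, was low in culture 2 alone, at 6.25, 4.09 and 6.30. LGR5, an R-spondin receptor, was highest in culture 2, at 8.74, 9.97 and 9.34, as was EPHA7.

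Whether such differences recur under the same culture number was examined with the second array, the one given X5050. Handling after culture that same-numbered arrays may share cannot be told apart from the culture itself. Of the 484 variable probe sets 411 (84.9%) had the highest X5050 signal in the same culture as the highest DMSO signal, against 45.8% of all probe sets. An SD of at least 0.5 over the 3 X5050 arrays was seen in 171 of the 484 (35.3%), against 1.44% of all. All 20 of the most variable genes were highest in culture 1 with X5050 too. COL12A1 had 7.80, 5.50 and 5.55 there, TAGLN had 8.19, 5.95 and 5.41, and CAV1 had 9.59, 7.17 and 7.97. ANKRD1 had 5.76, 4.55 and 4.49 in the X5050 arrays, a smaller span than the one with DMSO.

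A limma F test for culture over the 6 arrays, with treatment as a further term and Benjamini-Hochberg adjustment over 19460 probe sets, called 570 probe sets at an adjusted p under 0.05. Per gene these were 553 of 18417, or 3.00%. Of the 570 called, 377 had their highest DMSO signal in culture 1, 113 in culture 2 and 80 in culture 3. Without culture 1 the test between the other cultures called 265 probe sets, and without culture 3 it called 320. The test has 2 residual degrees of freedom and contains the DMSO values by which variable genes were chosen, so the 296 of 484 variable probe sets that it called describe their overlap and support nothing further.

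By lists, the share called was 38 of 164 adhesion genes (23.2%), 20 of 196 receptors (10.2%), 12 of 211 transcription factors (5.69%) and 10 of 234 metabolic genes (4.27%), against 3.00% of all genes. The lists were chosen with earlier results of these data known, so these shares describe the lists and support nothing further. In the mesenchymal and matrix list 11 of 18 were called, among them ACTA2, highest in culture 1 at 5.40 times its lowest culture (limma adjusted p = 0.00124). All 11 were highest in culture 1, as were 377 of all 570 called probe sets. The counts by culture that follow are read beside that share. Of the 38 called adhesion genes 30 were highest in culture 1, 4 in culture 2 and 4 in culture 3. The lists of laminins and basement membrane (6 of 19), integrins (6 of 24) and surface markers of neural precursors (7 of 22) had their called genes highest in culture 1 without exception, with ITGA4 at 5.78 times its lowest culture (limma adjusted p = 0.00145). Of the 7 called among 22 neural matrix genes 4 were highest in culture 1 and 3 in culture 3, among the latter SPARCL1 and PTN, the growth factor pleiotrophin. Markers of neural cell types also differed: 5 of 15 astrocyte markers were called, 3 highest in culture 1 and 2 in culture 3, and 5 of 22 neuronal markers, 2 highest in culture 1, among them GAP43, and 3 in culture 3, among them SLC17A6. The 12 called transcription factors went both ways: 7 were highest in culture 1, none in culture 2 and 5 in culture 3. NFIX (limma adjusted p = 0.00273), ID3 (0.00577) and RUNX2, a factor of bone and mesenchyme (0.00702), were highest in culture 1, and RUNX2 had 7.89, 5.90 and 6.34. EBF2 (limma adjusted p = 0.0191) and EBF3 (0.0221), factors of early neurons, and PAX3 (0.0279) and DBX2 (0.0483) were highest in culture 3, and EBF2 had 7.14, 7.20 and 7.87. Among receptors OSMR, the oncostatin M receptor, had 8.09 in culture 1 and 5.67 and 5.75 in cultures 2 and 3 (limma adjusted p = 0.00145).

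Of the 5 defining neural stem cell markers none passed the culture test. The limma adjusted p was 0.908 for SOX2, 0.74 for NES, 0.291 for PAX6, 0.809 for VIM and 0.967 for SOX1, and the highest culture was 1.20, 1.19, 1.39, 1.12 and 1.09 times the lowest. The mesenchymal markers, highest in culture 1, differed between the same cultures as the 30 adhesion genes called and highest there, and their part in those differences was not tested.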

How the data were processed

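Per the labels' protocols, 100 ng of total RNA from each sample went through Affymetrix whole-transcript labelling and onto its own array. The authors deposited a log2 signal for each probe set, made with RMA and Partek as far as the submitters' processing notes name tools. Their settings and the genome build are not given there. RMA gives arrays a like distribution and compresses low signals, and no detection call was used here.

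Of 33297 probe sets 19460 have 1 symbol in the platform annotation, 1754 have several and were not used, and 12083 are unnamed. By Entrez identifier 19429 matched RefSeq, and 0 symbols changed. Ranks, SDs and classes were computed with pandas 2.3.3 (Python 3.11.15, matplotlib 3.10.9), and culture was tested with limma 3.58.1 (lmFit, eBayes, R 4.3.3). The calculations were tested on simulated data.

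The design text gives 3 independent cultures, each treated either way. Deviations from the group means correlated at 0.255 to 0.365 between same-numbered arrays and at -0.236 to -0.052 between others, so a number was taken as a culture. The number of arrays (3) limits the precision.

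The gene lists (49, with 896 of 992 genes measured, the others not analysed here) and 48 symbol families were chosen with earlier results of these data known. Named genes were the 5 markers, up to 4 brightest, 2 dimmest and the most variable member of each list, the brightest and most variable of each family, the 12 brightest genes and the 20 most variable that were not dim, without unnamed loci or non-coding RNAs.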

Additional observations from a re-analysis of the deposited data

How the results depend on the processing

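Quantile normalization over the 3 DMSO arrays, centring on array medians and leaving out a culture moved no count of probe sets in the olfactory receptor range and no count of bright list genes by over 1.5 times. The 4496 dim probe sets were 3649 and 6664 with the 90th and 99th percentile as limit, and 4598 to 4727 with a culture left out. The 144 bright list genes were 77 and 243 when bright meant the brightest 5% and 20%, 139 where a gene was given by the median over its probe sets, and 148 to 151 with a culture left out. The 484 variable probe sets were 887 at an SD of at least 0.4 and 161 at 0.75, and 291 to 757 with a culture left out, lowest without culture 1. The 570 probe sets called between cultures were 518 after quantile normalization of the 6 arrays, 534 among probe sets above the median, 748 with a trended prior and 83 without the treatment term, and 265 to 688 with a culture left out, lowest without culture 1. A fit without a culture has fewer arrays, and a fit without the treatment term counts the difference between treatments as error. The cause of the shifts was not tested. Quantile normalization moved the signals of the 5 markers by at most 0.0057. No paired analysis was possible because a single treatment group is described and the replicate number is itself the term tested. With 3 arrays and no detection call, a dim signal does not show that a gene is silent.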

Other observations

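The 12 genes with the highest mean signal were RPS25, RPS20, PTMA, TUBB2A, FAF2, EEF1A1, RPS2, TMSB10, ODC1, YWHAE, MYL6 and RPL38. RPS25, a protein of the small ribosomal subunit, had 12.81, 12.82 and 12.90 in cultures 1, 2 and 3. PTMA, the nuclear protein prothymosin alpha, had 12.66, 12.67 and 12.67, with an SD of 0.0045, by its brightest probe set. PTMA has 6 probe sets with means of 12.66 down to 5.77 and 5.18, so this level is not shared by all of them. TUBB2A, a beta tubulin of neurons and their precursors, had 12.53, 12.40 and 12.80. Ribosomal protein genes have near-identical copies in the genome, so their order is uncertain.

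FAF2, a protein of the degradation route at the endoplasmic reticulum, had a pair of probe sets that disagreed. One had a mean log2 signal of 12.49 and the other 8.68, so its place among the brightest genes rests on 1 probe set. RPS25 also had a second probe set, with a mean of 11.68. GLUL and TPI1, bright by their first probe sets, had others at 7.78 and 7.57, in the middle class. In all, 676 genes had more than 1 probe set with distinct values.

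CYP51A1, an enzyme of sterol synthesis, had probe sets at 9.80 and 7.23, the first bright and the second middle. In DDR2, a collagen receptor, both probe sets were highest in culture 1, with 7.76, 5.93 and 5.68 and with 7.28, 5.88 and 5.83.

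Probe sets without a gene name in the annotation were not part of the descriptions above. Of these 12083 probe sets 1079 (8.93%) had signals above the limit of the brightest 10% of named ones on all 3 DMSO arrays, and 6978 (57.8%) were in the olfactory receptor range on all 3. Of the 360 olfactory receptor probe sets themselves 25 were not dim by the rule, and the highest mean among them was 5.95.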
